A study of Mus musculus with 18 samples.

Results

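Uteri labelled as Tsc2-deleted and also exposed to estradiol were compared with uteri labelled as having neither change, in 6 of the 18 mRNA libraries of the study. The KO E2 group came from mice with a uterus-specific Tsc2 deletion, with ovaries removed at 4 weeks and a 0.5 mg pellet of 17β-estradiol, made to release for 90 days, carried for 8 weeks. The WT ovx group came from wild-type mice with ovaries removed at the same age and no pellet, so both groups lacked ovaries. All mice were 12 weeks old, on a mixed 129Sv X C57BL/6 background, and a cross section of the whole uterus was used. KO ovx (deletion without estradiol) and WT E2 (estradiol without deletion) are given beside the comparison, and each group had 3 libraries, whose values are given below in order of their replicate numbers (1, 2 and 3, but 1, 2 and 4 in KO ovx and 1, 2 and 5 in WT E2). The promoter or Cre line behind the deletion is not given in the labels, which also do not say whether each library is a separate mouse, and p-values therefore speak only of the spread among libraries, which may be technical. Of 25791 genes in the table, 13898 were tested: by the rule that defined the comparison, a gene needed an FPKM (fragments per kilobase of transcript, scaled to the mapped total) of 1 or more in 3 or more of the 18 libraries.

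TSC2 and TSC1 form a complex that switches off the small GTPase RHEB, the direct activator of the growth kinase mTORC1. mTORC1 drives protein, lipid and nucleotide synthesis, and it holds the MiT/TFE transcription factors, which turn on lysosomal genes, in the cytoplasm. Estradiol acts in the uterus through its receptor ESR1, makes the epithelium grow and secrete, and in rodents can with long exposure draw in leukocytes and turn the epithelium squamous.

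KO E2 libraries differed among themselves more than WT ovx libraries. Pearson's r of log2(FPKM + 1), taken over genes that are not independent of each other, ran from 0.892 to 0.935 between KO E2 libraries, from 0.974 to 0.986 between WT ovx libraries, and from 0.761 to 0.809 between the groups. KO E2 replicate 2 had the lowest r with its group. The library labelled KO ovx replicate 4 stood apart in the same way from its own group, and its levels of Saa3, S100a8, Gli1 and Hoxa10 lay toward those of the estradiol-exposed libraries. Whether its label holds was not tested, and it enters every KO ovx step and the interaction below. FPKM summed to 392258 to 457719 in KO E2 and to 224169 to 275923 in WT ovx, and read depth is unknown. Low values placed the 12 libraries without ovaries in 2 library sets. Set A held KO E2 replicates 1 and 2 with WT ovx replicate 2, and set B held KO E2 replicate 3 with WT ovx replicates 1 and 3. Of the other groups, WT E2 replicates 1 and 2 lay in set A, and WT E2 replicate 5 and KO ovx replicates 1, 2 and 4 in set B. KO ovx thus had no library in set A, so the KO ovx steps and the interaction below partly mix group with set. The labels name no batch, and nothing but the values defines these sets.

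The deleted gene was measured first. Tsc2 (chromosome 17, 24686894 to 24769574 as the table numbers it) stood at 2.42, 1.75 and 2.28 FPKM in KO E2 and at 3.24, 3.49 and 3.17 in WT ovx. All 3 KO E2 libraries lay below all 3 WT ovx libraries, with a ratio of means of 0.652 (exact two-sided permutation test p = 0.1, the smallest that 3 against 3 allows). In limma the log2 difference was -0.45 ± 0.13 (SE), adjusted p = 0.0113, and the adjusted p rose to 0.0532 when the 6 libraries were fitted alone. KO ovx libraries, labelled as deleted, held 2.98, 3.33 and 2.39 FPKM, and WT E2 libraries, labelled as wild type, held 2.73, 2.38 and 2.66. KO ovx replicate 2 lay within the WT ovx range and KO E2 replicate 1 above WT E2 replicate 2, so these values alone do not show the loss of Tsc2, and the genotypes rest on the labels. Which part of the transcript the deletion removes is not given in the labels. Tsc1, whose product stabilizes TSC2, stood at 1.26, 1.39 and 1.28 FPKM in KO E2 against 2.28, 2.12 and 1.70 in WT ovx, a ratio of 0.643 with the same exact p of 0.1. Its limma call (-0.39 ± 0.13, adjusted p = 0.027) was lost without KO E2 replicate 1 or 3 or WT ovx replicate 1 or 2, with adjusted p of up to 0.109. Rheb (0.29 ± 0.24, adjusted p = 0.351) and Mtor (-0.20 ± 0.14, adjusted p = 0.271) did not pass the test, and their libraries overlapped.

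Over all genes tested, 5794 (41.7%) passed an adjusted p of 0.05 in limma, 3882 (27.9%) higher and 1912 (13.8%) lower in KO E2. The groups did not overlap for 36.3% of genes in the higher and 19.6% in the lower direction. The changes were uneven in size, since 265 genes were called at least 8-fold higher in FPKM + 1 and 13 at least 8-fold lower. The split between directions moved with the scaling: 67.0% of called genes were higher on the values as deposited, 52.5% after median-ratio scaling and 41.2% after quantile normalization. The median log2 difference over all genes was 0.20, 0.03 and -0.09 under the same settings, so small differences are read against that shift. Within library set A 2169 genes were called and 57.0% of them were higher, within set B 3676 and 85.0%, each with 1 or 2 libraries a group, while a fit with the set as a term called 5636. In the same fit, WT E2 against WT ovx called 47.5% of genes, KO ovx against WT ovx 5.42%, KO E2 against KO ovx 27.1% and KO E2 against WT E2 8.49%. These comparisons share libraries with the total effect, so their values are given side by side per gene without a measure of likeness.

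**Figure D1:**
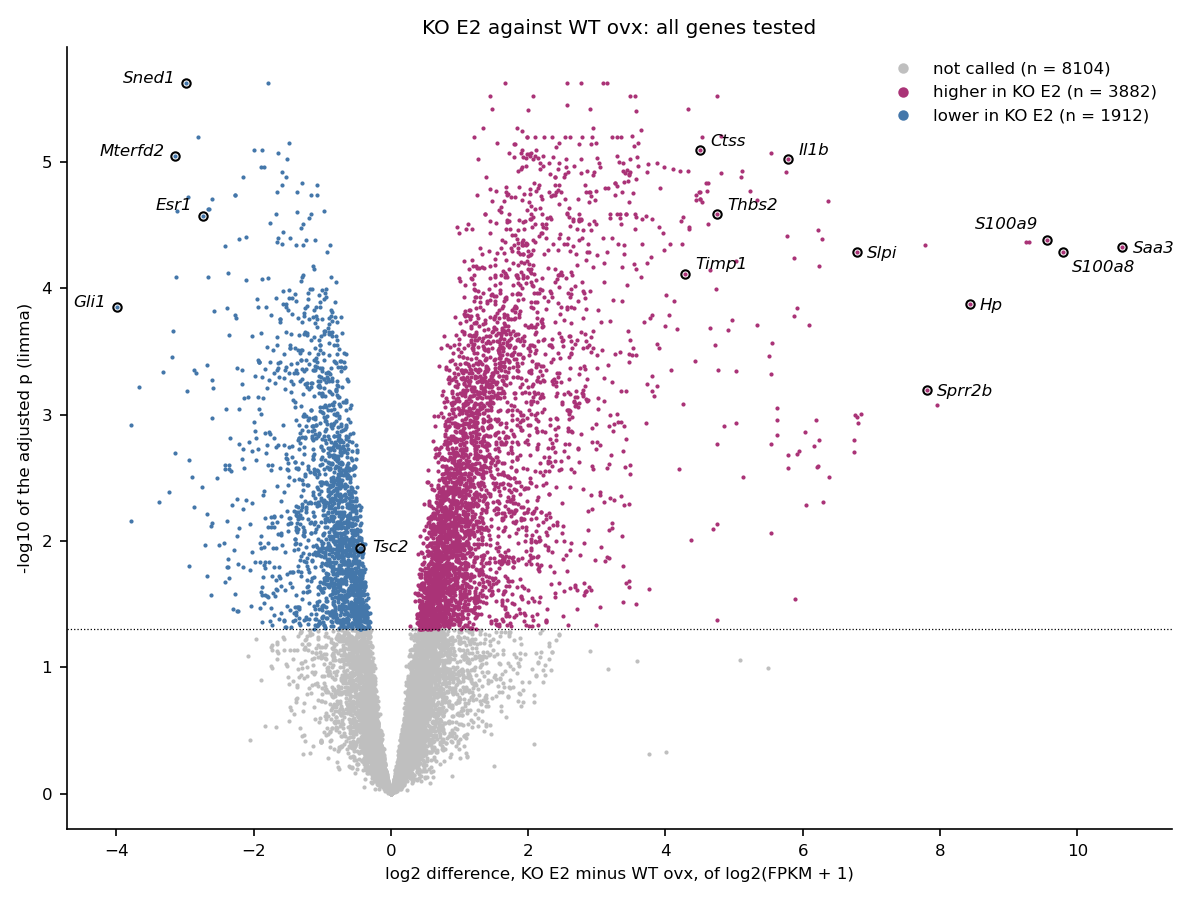
Every gene tested, with the log2 difference of KO E2 minus WT ovx on the x axis and -log10 of the limma adjusted p on the y axis (dotted line, adjusted p of 0.05). Saa3, S100a8 and S100a9 lie farthest to the right, while Gli1 lies farthest to the left at -3.99.

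The largest rises belonged to acute-phase and innate defence genes. Saa3, an acute-phase serum amyloid made locally in tissues (chromosome 7, start 53967367, end 53971046 in the table's coordinates), stood at 23860, 1450 and 4780 FPKM in KO E2 and at 1.69, 1.58 and 4.70 in WT ovx. Every KO E2 library lay far above any WT ovx library, and the log2 difference was 10.65 ± 1.37 (adjusted p = 4.7e-05). KO ovx libraries held 5.05, 2.47 and 320 FPKM of Saa3, high in replicate 4 only and otherwise near WT ovx. WT E2 libraries, at 106, 381 and 1309, lay between WT ovx and KO E2. Its neighbours Saa1 and Saa2, near-identical copies whose reads cannot be assigned with certainty, rose by 9.30 ± 1.18 and 9.25 ± 1.18. Hp, the haptoglobin gene, stood at 1783, 57.6 and 1057 FPKM against 0.293, 0.327 and 0.564, a rise of 8.43 ± 1.23 (adjusted p = 0.000132). Hp was lowest in KO E2 replicate 2, where it still exceeded every WT ovx library.

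S100a8 and S100a9 encode the subunits of calprotectin, the most abundant cytosolic protein of neutrophils. S100a8 stood at 7663, 708 and 629 FPKM in KO E2, 0.439, 0.478 and 1.30 in WT ovx, 0.971, 1.08 and 122 in KO ovx and 29.4, 98.1 and 218 in WT E2. KO E2 libraries were the 3 highest of the 12, and the log2 difference of S100a8 was 9.79 ± 1.28 (adjusted p = 5.12e-05). S100a9 rose by 9.56 ± 1.21. Slpi, a secreted inhibitor of neutrophil elastase, rose by 6.79 ± 0.89 (484, 38.0 and 857 FPKM against 1.83, 1.33 and 0.826), while WT E2 libraries held 6.35, 17.4 and 13.1.

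Of 23 tested neutrophil genes, 22 rose and none fell, with a median log2 difference of 5.09 beside 0.20 over all genes and 27.9% of genes called higher. The same 22 of 23 count was found without each of the 6 libraries in turn. The list also holds Lcn2 and Ltf, which the estrogen-treated epithelium makes, and Ltf was the member not called. Lcn2, encoding the siderophore-binding protein lipocalin 2, stood at 637, 3063 and 144 FPKM in KO E2 but at 3663, 3679 and 4904 in WT E2. Granule genes differed from Lcn2 in their order across the groups. Camp, the cathelicidin gene, stood at 162, 22.9 and 29.8 FPKM in KO E2, at 0 (as listed), 0.0573 and 0.135 in WT ovx, at 0 (as listed), 0.0204 and 1.97 in KO ovx and at 0.141, 0.844 and 0.371 in WT E2. It was thus above 20 FPKM in all KO E2 libraries and below 2 in the other 9, with a total difference of 5.54 ± 0.54 (adjusted p = 8.51e-06). Ngp, another neutrophil granule protein gene, stood at 286, 14.8 and 49.7 FPKM in KO E2 against at most 0.058 in WT ovx (5.87 ± 0.78). The stefin genes Stfa1 and Stfa3, which are near-identical copies, were high mainly in KO E2 replicate 1, with 1054 and 975 FPKM beside 12.6 to 19.4 in the other two.

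Macrophage and myeloid genes rose in 19 of 20 tested, with a median of 3.49, and lymphocyte genes in 9 of 12, with a median of 1.69. Ctss, a lysosomal protease of antigen-presenting cells, stood at 68.3, 99.8 and 187 FPKM against 4.08, 4.46 and 3.08 (4.50 ± 0.44, adjusted p = 8.08e-06). Cd14, the lipopolysaccharide co-receptor, stood at 385, 330 and 119 against 5.66, 4.89 and 6.39, and WT E2 held 135, 341 and 561. Ptprc, which encodes the pan-leukocyte marker CD45, stood at 7.69, 6.20 and 12.4 against 0.896, 1.07 and 0.670, and at 0.636, 2.31 and 1.74 in WT E2. Its total rise was 2.33 ± 0.28 (adjusted p = 2.84e-05), while WT E2 against WT ovx gave 0.39 ± 0.28 (adjusted p = 0.263). The T cell receptor genes Cd3g and Cd3e rose by 2.08 ± 0.27 and 1.75 ± 0.28, and the B cell gene Cd79b stood at 28.6 FPKM in KO E2 replicate 3 beside 1.56 and 2.18. In bulk tissue, more cells of a type and more RNA per cell cannot be told apart.

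Signals that leukocytes send and answer rose with these genes. Among 35 tested chemokines and interleukins, 23 rose and 1 fell (median 2.49). For this list and those below, 27.9% of all genes were called higher and 13.8% lower. Ccl8, a monocyte attractant, stood at 615, 215 and 204 FPKM against 3.35, 6.32 and 2.83, a rise of 5.92 ± 0.88. Il1b, the interleukin 1 beta gene, was at most 0.254 FPKM in WT ovx and stood at 163, 42.9 and 32.1 in KO E2 (5.79 ± 0.59, adjusted p = 9.56e-06), with 4.23, 22.8 and 9.40 in WT E2. The neutrophil attractants Cxcl2 and Cxcl3 were highest in KO E2 replicate 1, at 423 and 200 FPKM, and stood at 12.2 to 47.7 in the other two. Complement genes rose in 15 of 21 tested (median 2.71), among them Cfb (41.2, 224 and 35.0 FPKM against 1.14, 1.13 and 1.79) and C1qb, a subunit of the first component (80.8, 86.9 and 276 against 6.58, 10.5 and 5.69). Interferon response genes rose in 23 of 30 (median 1.89), a count that dropped to 12 without KO E2 replicate 2 and to 15 without WT ovx replicate 1. B2m, the shared light chain of MHC class I, rose from 75.7, 82.1 and 70.0 FPKM to 460, 1250 and 860 (3.37 ± 0.49), with KO E2 replicate 2 highest.

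**Figure D2:**
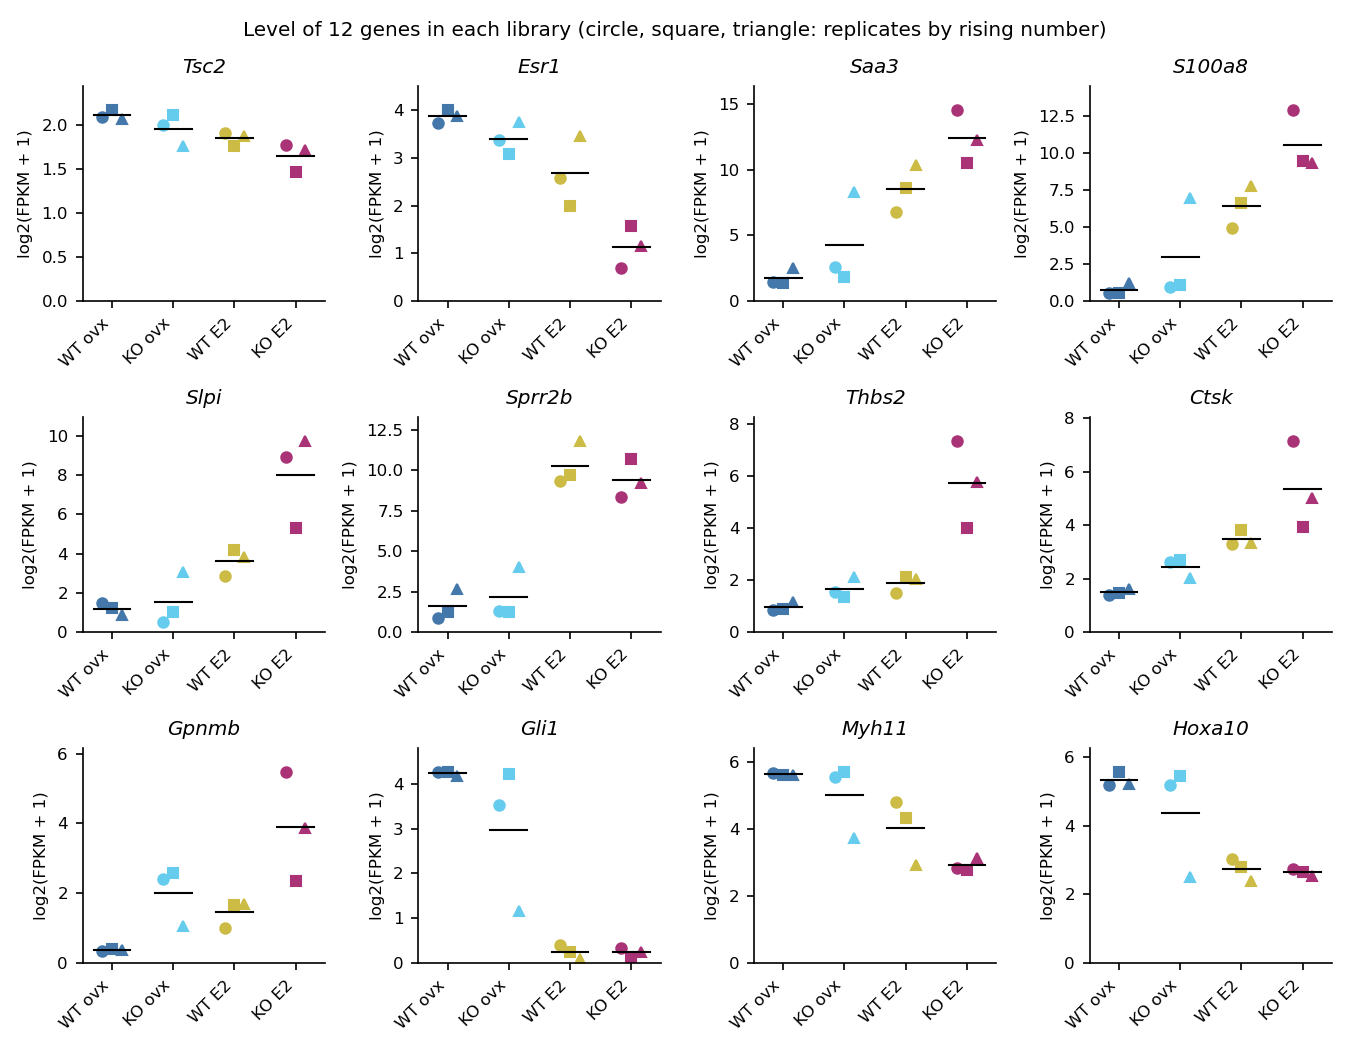
Level of 12 genes as log2(FPKM + 1) in each of the 12 libraries without ovaries; each point is a library and each bar the group mean of 3. Saa3, S100a8, Slpi and Thbs2 are highest in the 3 KO E2 libraries, Sprr2b is high with and without Tsc2 under estradiol, and KO ovx replicate 4 (triangle) departs from its group for Saa3, S100a8, Gli1, Myh11 and Hoxa10.

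The second group of large rises were epithelial barrier genes. Squamous differentiation genes rose in 19 of 23 tested, with a median of 2.31, and in WT E2 21 of the same 23 were called higher against the same WT ovx libraries, with a median of 3.17. Of all genes, 27.9% were called higher in KO E2 and 32.3% in WT E2. Only 23 of the 36 squamous genes in the table were tested. As in every list, a gene can reach that level through estradiol-exposed libraries alone, which favours members that rise. Untested members went both ways, with Klk10 at 0.0311, 0.0547 and 0.0276 FPKM against 0.224, 0.262 and 0.145, and Tgm1 at 1.85, 0.481 and 0.738 against 0.0781, 0.106 and 0.153. Sprr2b, encoding a small proline-rich protein of the cornified envelope, stood at 319, 1667 and 579 FPKM in KO E2, 0.831, 1.35 and 5.41 in WT ovx and 636, 813 and 3575 in WT E2. KO E2 and WT E2 libraries overlapped, and both lay far above WT ovx (7.81 ± 1.42 in KO E2, adjusted p = 0.000639). The adjoining Sprr2 genes are near-identical, so that Sprr2a3, Sprr2d, Sprr2e, Sprr2f, Sprr2h and Sprr2i, with rises of 6.75 to 7.95, may share reads. Trp63, the master regulator of stratified epithelium, did not reach the level to be tested, with 0.326, 0.0151 and 5.61 FPKM in KO E2 and at most 0.15 in WT ovx. Ivl, the cornified envelope gene involucrin, was likewise untested, at 0.514, 0.0285 and 23.3 FPKM in KO E2, so both were high in replicate 3 only.

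General epithelial markers did not follow. Of 28 tested uterine epithelium genes, 3 were higher and 2 lower in KO E2 (median 0.44), whereas 20 were higher and none lower in WT E2 (median 1.88). The shares of all genes called higher and lower were 27.9% and 13.8% in KO E2 and 32.3% and 15.2% in WT E2. The keratin genes Krt7 and Krt19 rose by 3.41 ± 0.76 and 2.42 ± 0.63, while Msx1, a homeobox gene of the receptive epithelium, fell from 13.2, 22.7 and 31.0 FPKM to 1.57, 8.57 and 0.938 (-2.61 ± 0.68, adjusted p = 0.00718). The 3 KO E2 libraries differed here, with list medians of -0.42, 1.41 and 0.25 relative to WT ovx in replicates 1, 2 and 3. Without replicate 1 or replicate 3 the count of higher genes was 7, and without replicate 2 it was 2, with 5 lower.

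Genes known to be induced by estrogen rose in 12 of 31 tested and fell in 2 (median 1.37), against 17 and 1 in WT E2. Over all genes, 27.9% were called higher in KO E2 and 32.3% in WT E2. C3, a complement gene that estrogen induces in the uterus, stood at 114, 317 and 190 FPKM in KO E2, 5.44, 4.91 and 8.52 in WT ovx and 450, 402 and 646 in WT E2. Every estradiol-exposed library was thus above every WT ovx library, and the KO E2 rise was 4.75 ± 0.99 (adjusted p = 0.00172). Mmp7, the epithelial protease matrilysin from the list of matrix proteases, stood at 18.6, 112 and 24.0 FPKM in KO E2 against at most 0.373 in WT ovx, beside 125, 143 and 152 in WT E2. Greb1, a direct ESR1 target, was also higher (3.04, 4.26 and 2.38 FPKM against 0.980, 0.982 and 0.997), yet its call (1.07 ± 0.36, adjusted p = 0.0265) ended without any 1 of 5 of the 6 libraries, with adjusted p up to 0.0886. Ltf, the lactoferrin gene, was not called (192, 1665 and 29.6 FPKM against 4.63, 2.93 and 10.3, adjusted p = 0.0874), and it was listed at 0 in 2 WT E2 libraries beside 2103 in the third. Of the immediate early genes, Fos was not called (adjusted p = 0.831) and stood at 505 FPKM in WT ovx replicate 3 beside 3.26 and 1.83 in replicates 1 and 2, above all KO E2 libraries (98.0, 24.0 and 7.0).

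The receptors themselves were lower. None of 16 tested steroid receptor and cofactor genes rose and 12 fell, with a median of -0.77, beside 13.8% of all genes called lower. Esr1 (chromosome 10, start 5342779, end 5734495 in the table's coordinates) stood at 0.612, 1.99 and 1.22 FPKM in KO E2, 12.4, 15.1 and 13.8 in WT ovx, 9.34, 7.54 and 12.5 in KO ovx and 4.95, 2.99 and 10.0 in WT E2. The 3 KO E2 libraries were the lowest of the 12, and the total difference of -2.74 ± 0.33 (adjusted p = 2.7e-05) was -2.88 within set A and -2.66 within set B. KO ovx and WT E2 differed from WT ovx by -0.47 ± 0.33 and -1.20 ± 0.33, and the test of whether the estradiol response of Esr1 differed between genotypes gave -1.07 ± 0.46 (adjusted p = 0.147). Pgr, the progesterone receptor gene, stood at 2.25, 3.13 and 1.52 FPKM against 5.23, 7.88 and 9.22 (-1.35 ± 0.41, adjusted p = 0.0157), a call lost without KO E2 replicate 3 or WT ovx replicate 3 (adjusted p up to 0.0589). WT E2 libraries held Pgr at 11.0, 6.83 and 24.3 FPKM. Sox17 and Hand2, transcription factors of epithelium and stroma that act with these receptors, differed by -2.17 and -2.50, both called lower, and the stromal receptor gene Nr2f2 by -1.78.

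Most lysosomal genes rose. Of 38 tested lysosome genes and MiT/TFE targets, 33 rose and none fell (median 1.69), beside 18 higher in KO ovx (median 0.97) and 24 higher with 2 lower in WT E2 (median 1.06). The shares of all genes called higher were 27.9% in KO E2, 4.63% in KO ovx and 32.3% in WT E2. Without any 1 library the count of higher genes was 28 to 34. Of the members called higher, 6 carry the long form of the E-box at which MiT/TFE factors bind, the letters TCACGTGA, within 250 bases before to 50 after a gene start in RefSeq (GRCm38.p6). The stretch around the site nearest the start is shown for each, with the motif in capitals.
Atp6v0d1, chr8:105566021-105566108, minus strand: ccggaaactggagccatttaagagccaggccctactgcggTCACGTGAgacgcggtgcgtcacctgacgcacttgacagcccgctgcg
Atp6v1a, chr16:44139344-44139431, minus strand: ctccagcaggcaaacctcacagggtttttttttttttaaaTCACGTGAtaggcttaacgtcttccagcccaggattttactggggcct
Ctsa, chr2:164833737-164833822, plus strand: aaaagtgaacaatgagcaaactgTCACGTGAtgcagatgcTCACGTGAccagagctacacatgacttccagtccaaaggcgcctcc
Ctsd, chr7:142387879-142387966, minus strand: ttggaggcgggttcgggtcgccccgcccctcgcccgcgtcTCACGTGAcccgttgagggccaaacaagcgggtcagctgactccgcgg
Gla, chrX:134601153-134601240, minus strand: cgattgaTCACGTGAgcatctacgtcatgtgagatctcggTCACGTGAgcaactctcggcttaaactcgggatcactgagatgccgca
Mcoln1, chr8:3500433-3500520, plus strand: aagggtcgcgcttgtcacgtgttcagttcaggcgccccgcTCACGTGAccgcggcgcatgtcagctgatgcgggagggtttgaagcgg
These genes encode 2 subunits of the proton pump (Atp6v0d1, Atp6v1a), 3 lysosomal hydrolases (Ctsa, Ctsd, Gla) and the calcium channel mucolipin 1. Ctsa and Gla hold 2 copies each. Only 24 of the 33 members (72.7%) had a promoter in the table, under the 80% needed for a share of the list, so that comparison is void. Among the 24, 6 hold the 8-letter form on either strand and 8 hold its core CACGTG. These forms stand in 2.2% and 11.6% of the 8759 tested genes with a promoter in the table, and in 0.974% and 7.15% of all 32851 promoters of the same length. Nothing about the list is read from these shares. A match is a description of letters, not of binding.

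Ctsk, a collagen-degrading cathepsin, showed the largest lysosomal rise, from 1.60, 1.78 and 2.03 FPKM to 142, 14.3 and 31.1 (3.88 ± 0.70, adjusted p = 0.00059). Gpnmb, a melanosomal glycoprotein gene that MiT/TFE factors induce, stood at 43.5, 4.05 and 13.7 FPKM in KO E2, 0.277, 0.311 and 0.298 in WT ovx, 4.26, 4.92 and 1.07 in KO ovx and 1.00, 2.14 and 2.23 in WT E2. All KO E2 libraries exceeded all WT ovx and WT E2 libraries, though KO E2 replicate 2 lay within the KO ovx range. Ctsb, encoding cathepsin B, stood at 343, 129 and 238 FPKM against 25.8, 34.7 and 30.1, with steps of 1.53 ± 0.41 in KO ovx, 2.48 ± 0.41 in WT E2 and 2.83 ± 0.41 in KO E2. Macrophages are rich in cathepsins, and the macrophage list rose in the same libraries (summed FPKM 2092, 2572 and 6862 in KO E2 against 148 to 221 in WT ovx). The part of macrophages in the lysosomal rise was not tested.

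Among lysosomal members, Rragd and Atp6v0d2 showed the reverse order of groups. Rragd, a Rag GTPase that recruits mTORC1 to the lysosome, stood at 8.49, 5.45 and 12.3 FPKM in KO ovx but only at 0.962, 0.519 and 0.659 in KO E2, near 0.281, 0.455 and 0.337 in WT ovx. Its difference from WT ovx was 2.79 ± 0.21 (adjusted p = 5.41e-06) in KO ovx and 0.33 ± 0.21 (adjusted p = 0.213) in KO E2. Atp6v0d2, a proton pump subunit singled out after its values were seen, stood at 14.0, 7.79 and 30.4 FPKM in KO ovx and at 1.40, 0.344 and 1.03 in KO E2 (3.93 ± 0.37 and 0.83 ± 0.37 from WT ovx). For both genes the KO ovx libraries lay above all KO E2 libraries, and the difference between genotypes in the response to estradiol passed the test (Rragd -2.36 ± 0.29, adjusted p = 0.00141, and Atp6v0d2 -3.30 ± 0.52, adjusted p = 0.0036).

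**Figure D3:**
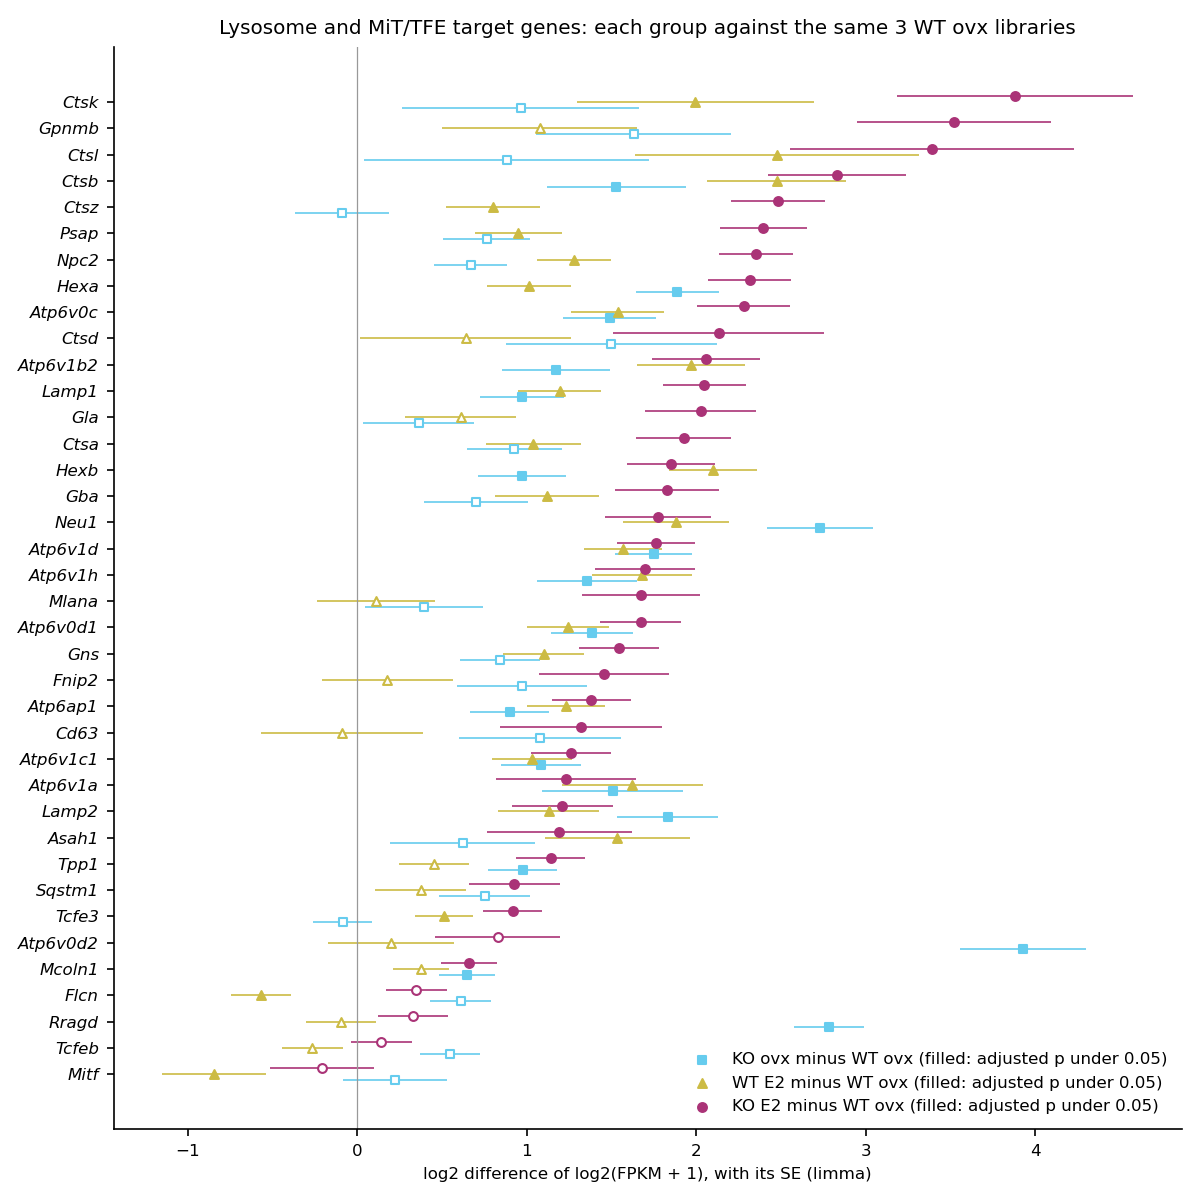
Log2 difference from WT ovx, with its SE, of 38 lysosome genes and MiT/TFE targets in KO ovx (squares), WT E2 (triangles) and KO E2 (circles); filled symbols passed an adjusted p of 0.05. The KO E2 values are positive for all but Mitf, and Rragd and Atp6v0d2 are far higher in KO ovx than in KO E2.

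Genes of energy metabolism were also higher. Glycolysis and hypoxia genes rose in 18 of 24 tested and fell in 1 (median 1.78). Slc16a3, the lactate exporter, stood at 41.2, 16.0 and 10.8 FPKM against 0.296, 0.283 and 0.222 (4.01 ± 0.57, adjusted p = 0.000112), and WT E2 held 7.77, 9.79 and 19.4. Ldha, encoding the lactate dehydrogenase A subunit, rose by 2.85 ± 0.46 and Pgk1, a glycolytic kinase, by 3.01 ± 0.52, with rises of 3.31 and 3.26 in WT E2. Nuclear oxidative phosphorylation genes rose in 23 of 32 (median 0.95), but in only 5, with 3 lower, after quantile normalization and in 15 without WT ovx replicate 1. Cox5a, a cytochrome oxidase subunit, stood at 47.2, 77.6 and 64.5 FPKM in KO E2, 6.74, 10.7 and 10.8 in WT ovx, 33.2, 26.5 and 84.9 in KO ovx and 86.7, 104 and 88.8 in WT E2. All libraries of the other 3 groups exceeded WT ovx. Sterol and fatty acid synthesis genes rose in 9 of 25 (median 1.14), in 2 without WT ovx replicate 1 and 4 without WT ovx replicate 3. That count lay near the 27.9% of all genes called higher, so no change of the list is read from it. Among cell cycle genes 18 of 33 rose (median 1.05), led by Birc5, the survivin gene (5.26, 6.23 and 7.19 FPKM against 0.303, 0.403 and 0.318, a rise of 2.42 ± 0.34). Genes of cytosolic translation, whose mRNAs mTORC1 controls mainly at translation, had 1 of 38 higher and none lower (median -0.13). That list turned with the scaling, with 8 lower after median-ratio scaling and 33 lower after quantile normalization, and 3 lower without KO E2 replicate 3. Of 29 tested TSC and mTORC1 components, 10 were higher and 4 lower (median 0.33), shares near those of all genes (27.9% higher, 13.8% lower, median 0.20), so no change of these components as a group is read from them. Among them Eif4ebp1, the translation repressor that mTORC1 inactivates, stood at 51.1, 13.7 and 31.4 FPKM against 4.77, 6.47 and 6.12 (2.11 ± 0.42, adjusted p = 0.00128).

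Matrix genes stood high in 2 of the 3 KO E2 libraries. Among collagen and matrix genes 14 of 36 rose and 1 fell (median 1.07), against 2 higher and 6 lower in WT E2. Over all genes, 27.9% were called higher in KO E2. Thbs2, encoding thrombospondin 2, stood at 161, 15.1 and 53.9 FPKM in KO E2, 0.814, 0.855 and 1.21 in WT ovx, 1.89, 1.55 and 3.32 in KO ovx and 1.85, 3.35 and 3.06 in WT E2. KO E2 libraries were the 3 highest, and the total rise of 4.75 ± 0.56 (adjusted p = 2.59e-05) stood beside 0.92 ± 0.56 in WT E2 and 0.70 ± 0.56 in KO ovx. The median of the whole list relative to WT ovx was 1.24 and 1.28 in KO E2 replicates 1 and 3 but 0.07 in replicate 2. Its count of higher genes was 20 without replicate 2, 7 without replicate 1, 9 without replicate 3 and 8 without WT ovx replicate 1. Matrix proteases and their inhibitors showed the same split, with 15 of 27 higher, 1 lower and library medians of 2.40, 0.27 and 1.74. Timp1, a metalloprotease inhibitor, stood at 62.4, 9.64 and 28.1 FPKM against 0.325, 0.400 and 0.437 (4.28 ± 0.58, adjusted p = 7.65e-05). Mmp13, an interstitial collagenase, stood at 99.6, 2.19 and 21.8 FPKM against at most 0.0334, and at most 0.920 in WT E2 (total rise 4.26 ± 0.80).

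Markers of other tissues moved with these 2 libraries. Adipocyte genes summed to 564, 29.0 and 3550 FPKM in KO E2 replicates 1, 2 and 3 against 17.3 to 19.0 in WT ovx. In the main fit 12 of 14 tested were called higher, beside 27.9% of all genes, but only 2 when the 6 libraries were fitted alone, with or without a replicate block. Fabp4, an adipocyte fatty acid carrier, stood at 147, 4.73 and 956 FPKM, while Cfd (257, 0.104 and 1212) and Adipoq (16.4, 0.0556 and 97.2) were near WT ovx levels in replicate 2. The count of called adipocyte genes was 5 without KO E2 replicate 1, 4 without replicate 3 and 4 to 5 without any 1 WT ovx library. The defining brown fat and hormone genes Ucp1 and Lep did not reach the level to be tested, and both were highest in KO E2 replicate 3. Ucp1 stood at 0.207, 0.0321 and 1.74 FPKM in KO E2 against at most 0.00796 in WT ovx. Lep stood at 0.0204, 0 (as listed) and 1.45 FPKM against at most 0.00286. Haemoglobin genes followed the same order (Hbb-b1 at 141, 25.9 and 183 FPKM against 12.0, 14.1 and 11.3). The part of fat or blood in the matrix result was not tested.

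**Figure D4:**
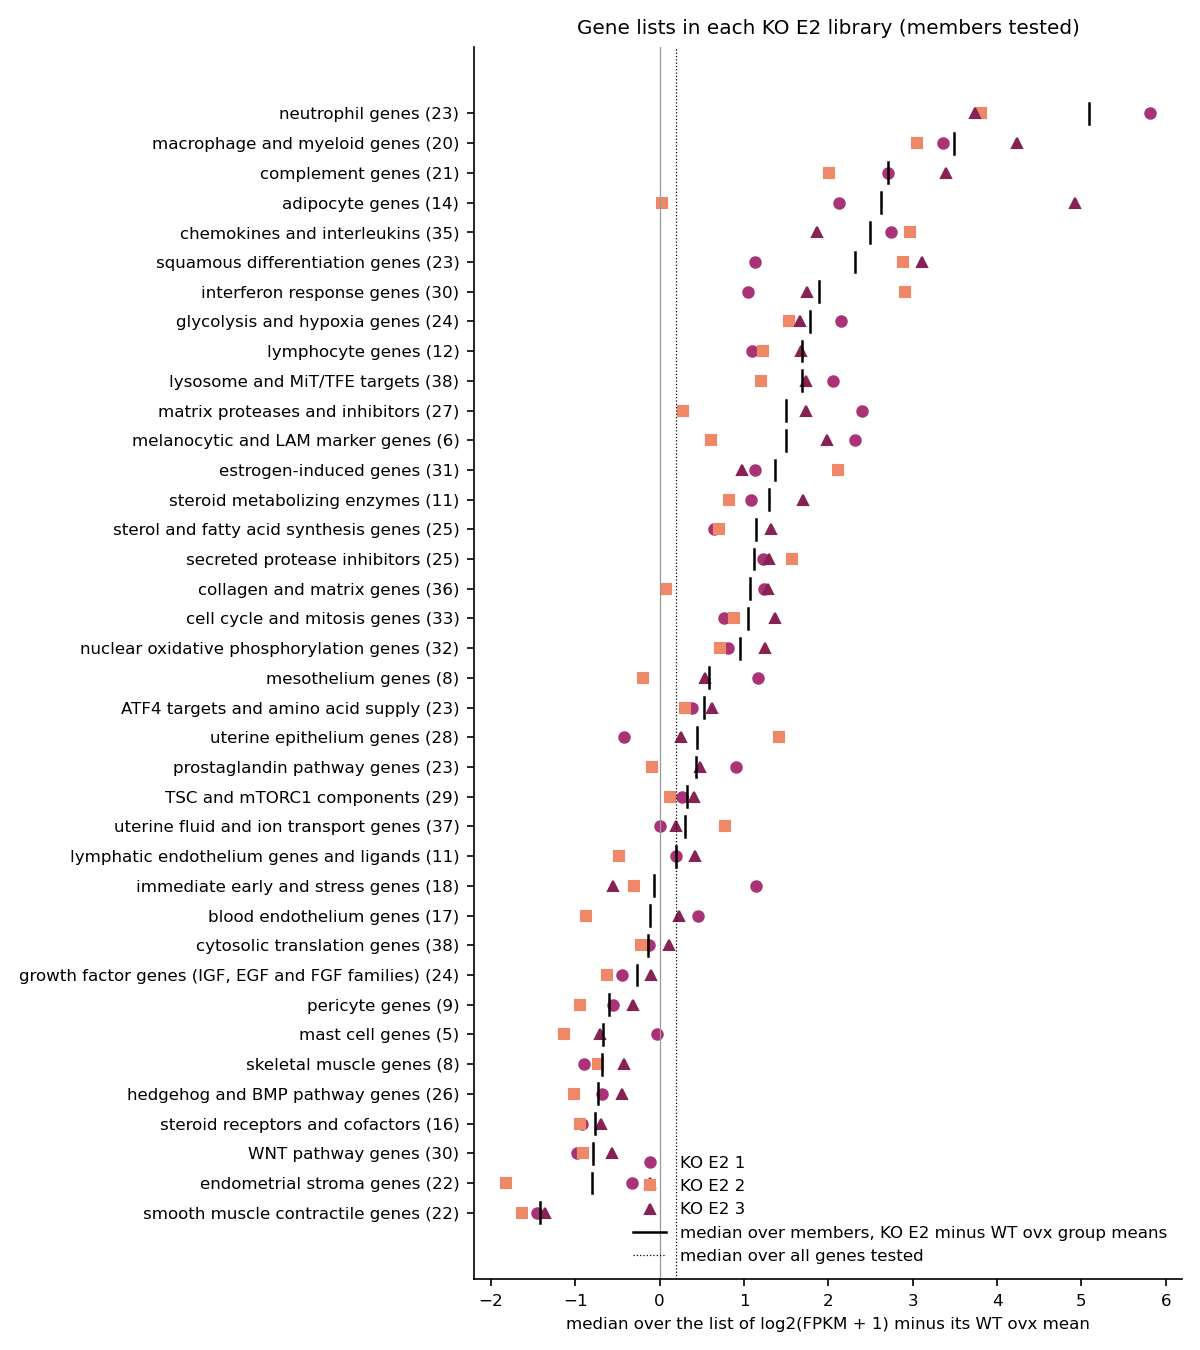
Median over the tested members of each gene list of log2(FPKM + 1) minus its WT ovx mean, with a symbol per KO E2 library and a bar for the median of group differences; the number tested is in brackets. Neutrophil, macrophage, lysosome, steroid receptor and smooth muscle lists lie on 1 side of 0 in all 3 libraries, whereas collagen, protease and adipocyte lists lie near 0 or low in KO E2 replicate 2.

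The largest fall was that of Gli1. This gene, a transcription factor and readout of hedgehog signalling (chromosome 10, start 126760782, end 126778635 in the table's coordinates), stood at 0.259, 0.104 and 0.192 FPKM in KO E2 and at 18.2, 18.2 and 17.1 in WT ovx. The groups were far apart, with a log2 difference of -3.99 ± 0.59 (adjusted p = 0.000141). WT E2 libraries were as low (0.320, 0.191 and 0.0617 FPKM), and KO ovx libraries held 10.4, 17.5 and 1.23, low in replicate 4 only. Hedgehog and BMP pathway genes fell in 10 of 26 tested and rose in 3 (median -0.73). WNT pathway genes fell in 14 of 30 and rose in 2 (median -0.79), beside 13.8% of all genes called lower. Rspo3, a stromal amplifier of WNT signals, fell by 2.87 on the log2 scale (1.67, 0.566 and 0.636 FPKM against 14.2, 12.5 and 12.1). Wnt6, a WNT ligand, was called lower by -1.95 and Fzd10, a WNT receptor gene, by -2.17. Against this direction, Inhbb, an activin subunit gene, rose from 1.18, 1.72 and 1.43 FPKM to 34.8, 18.4 and 9.83 (3.01 ± 0.50), with 17.6, 17.4 and 21.5 in WT E2.

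Smooth muscle contractile genes fell in 11 of 22 tested and rose in 1 (median -1.42), and the groups did not overlap for 20 members in the lower direction. Over all genes tested, 13.8% were called lower and 19.6% did not overlap in that direction. Myh11, the smooth muscle myosin heavy chain, stood at 6.15, 5.78 and 7.79 FPKM in KO E2, 49.5, 47.7 and 47.9 in WT ovx, 46.1, 51.0 and 12.3 in KO ovx and 26.6, 19.1 and 6.62 in WT E2. The KO E2 libraries formed a tight low group (-2.71 ± 0.76, adjusted p = 0.0107). In WT E2, 1 library was as low (6.62 FPKM), and the lowest KO ovx library (12.3) lay above all KO E2 libraries. The count moved with the fit: 18 members fell when the 6 libraries were fitted alone, 20 after quantile normalization, and 8 when KO E2 replicate 1 or WT ovx replicate 2 or 3 was left out. Without KO E2 replicate 2 or 3 the count was 7, and without WT ovx replicate 1 it was 6. Endometrial stroma genes fell in 8 of 22 and rose in 2 (median -0.81), and 5 fell without KO E2 replicate 2 or without WT ovx replicate 2. Hoxa10, a homeobox gene of stromal identity, stood at 5.60, 5.28 and 4.77 FPKM against 35.5, 46.2 and 36.1 (-2.69 ± 0.84, adjusted p = 0.019), and at 7.13, 5.93 and 4.21 in WT E2. The call of Hoxa10 was lost without WT ovx replicate 2 (adjusted p = 0.0551). Igfbp5, a binding protein of the insulin-like growth factors, fell by 2.76 (13.8, 0.979 and 5.47 FPKM against 30.3, 39.3 and 45.6), while Igf1 was not called (7.51, 2.15 and 7.71 against 2.12, 3.10 and 2.91, adjusted p = 0.21).

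Other genes among the 15 largest falls behaved in different ways across the single steps. Sned1, a stromal matrix protein gene, fell by 2.99 (0.0645, 0.0373 and 0.274 FPKM against 8.33, 8.77 and 6.71), with -1.69 ± 0.21 in KO ovx and -3.06 ± 0.21 in WT E2. Pcp4, a calmodulin regulator of muscle and neurons, stood at 2.82, 9.23 and 2.14 FPKM in KO E2 against 65.0, 68.7 and 69.0 in WT ovx (-3.79 ± 0.98, adjusted p = 0.00692). WT E2 libraries held 86.2, 78.3 and 8.35 FPKM of Pcp4 and KO ovx libraries 66, 64.5 and 25.5, so 1 library of each lay low. The entries Gm3903 and 9930023K05Rik, also among the largest changes, are counted but not described. Of the vascular growth factor genes, Vegfa (15.8, 9.57 and 7.97 FPKM against 16.9, 17.1 and 15.6) and the lymphatic factor gene Figf (2.93, 0.584 and 7.68 against 1.11, 1.14 and 1.39) were not called, with adjusted p of 0.154 and 0.225.

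Whether the total effect differed from the sum of the single steps was tested by the difference between genotypes in the response to estradiol, on the log2 scale. It passed for 1529 genes (11.0%), 563 higher and 966 lower, with a median over all genes of -0.14. Of those called, 36.8% were higher, against 51.1% after median-ratio scaling and 48.9% after quantile normalization. The count was 4140 with array weights, 942 with the library set as a term and 470 within set B, and it moved with many single libraries. Omitting WT ovx replicate 1, 2 or 3 gave 520, 804 or 880 genes, and the count was 772 and 721 without WT E2 replicates 1 and 5, 733 without KO ovx replicate 4, 755 without KO E2 replicate 1 and 2383 without KO E2 replicate 2. Genes of myeloid cells were among those with more than the sum. Csf2rb, the shared receptor chain of interleukin 3 and GM-CSF, stood at 24.6, 10.1 and 23.1 FPKM in KO E2, 2.82, 3.08 and 2.74 in WT ovx, 0.579, 0.947 and 0.751 in KO ovx and 0.947, 3.89 and 2.31 in WT E2. Neither single step passed the test (-1.15 ± 0.33, adjusted p = 0.0599, in KO ovx and -0.30 ± 0.33, adjusted p = 0.485, in WT E2), and the total was 2.29 ± 0.33 with an interaction of 3.73 ± 0.47 (adjusted p = 0.0015). Its near-identical copy Csf2rb2 gave 3.77 ± 0.47. Camp and Ngp had interactions of 4.67 ± 0.76 and 4.39 ± 1.10, of which that of Ngp was lost without KO ovx replicate 1, WT E2 replicate 1 or WT ovx replicate 1. It was also lost with a pseudocount of 0.1, in a fit of the compared libraries alone, with the library set as a term and within set B. The Camp interaction was lost within set B. With a replicate block, the interactions of Camp, Ngp, Csf2rb and Csf2rb2 were all lost. In all, 8 of 23 neutrophil genes and 7 of 20 macrophage genes were called higher in this test, beside 4.05% of all genes tested.

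Secretory epithelial genes were among those with less than the sum. Of 28 uterine epithelium genes, 17 were called lower (median -2.92) and none higher, beside 6.95% of all genes called lower in this test. Scgb3a1, a secretoglobin, stood at 3.03, 80.1 and 1.08 FPKM in KO E2, 0.174, 0.264 and 1.83 in WT ovx, 0.417, 0.628 and 2.69 in KO ovx and 301, 981 and 1472 in WT E2. WT E2 libraries were the 3 highest, and KO E2 replicate 2 lay between them and the rest (interaction -6.77 ± 1.37, adjusted p = 0.00984). Pdzk1ip1, a membrane protein gene of epithelia, stood at 88.9, 64.1 and 130 FPKM in KO ovx, 131, 81.6 and 83.7 in WT E2, but 9.64, 105 and 8.14 in KO E2 and 2.27, 5.76 and 3.88 in WT ovx (interaction -6.43 ± 0.93, adjusted p = 0.00251). All KO ovx and WT E2 libraries held at least 64.1 FPKM, while KO E2 replicates 1 and 3 were nearer to WT ovx. Ckmt1, a mitochondrial creatine kinase gene, was lowest in WT ovx and highest in WT E2 (interaction -5.89 ± 1.12, adjusted p = 0.0071), with 2.60, 26.3 and 6.49 FPKM in KO E2, 1.10, 2.61 and 2.31 in WT ovx, 17.9, 14.7 and 49.1 in KO ovx and 81.2, 42.9 and 71.2 in WT E2. KO E2 replicate 2 was again the highest of its group.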

How the data were processed

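Uterine mRNA of 18 samples in 6 groups of 3 was sequenced by the submitters, and 6 libraries enter the comparison. The deposited table gives FPKM per gene, which the authors made with Cufflinks 2.0.2 and Cuffdiff, per the submitters' processing notes. For aligner, annotation and genome build, names are not given in the sources used here. Because FPKM keeps no read depth, no counting interval is given, and an exact 0 may be a failed estimate.

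Values were taken as log2(FPKM + 1), a scale that understates changes of low genes. The 13898 genes that reached 1 FPKM in 3 or more of 18 libraries were fitted with limma 3.58.1 in R 4.3.3, over all 6 groups with no covariate. P-values were moderated, two-sided and adjusted (Benjamini-Hochberg) across every tested gene, with a threshold of 0.05. The fit was tested on simulated data. Figures were drawn in Python 3.11.15 with matplotlib 3.10.9.

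Genes were named by rule: the 15 largest called changes in each direction with a mean of at least 5 FPKM and no overlap, up to 4 called members of each of 41 lists (otherwise 2), the 8 largest interaction effects in each direction and a fixed set. Other genes were singled out after their values were seen. A gene that the rule named is not reported here, though it stays in the fit and in the counts over lists. The comparison, the lists and the tests were chosen with earlier results of these data known.

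The 12 libraries without ovaries were placed in 2 sets as follows: among genes above 0 and at most 0.05 FPKM in both libraries of a pair, the share whose log2 ratio fell in the fullest window of 0.02 was taken, and libraries were clustered on it. That share had a median of 7.43% (3.56 to 14.3) within and 3.05% (2.15 to 3.98) between sets. Replicate numbers did not pair the groups, with correlations of deviations of 0.0549, 0.0222 and -0.129 for numbers 1, 2 and 3. Alternatives were another pseudocount, other filters, median-ratio and quantile scaling, the 6 libraries alone, array weights, a replicate block, the library set, and each library left out. Promoter sequences came from RefSeq (GRCm38.p6) by symbol, matching 8759 of the 13898 genes. Coordinates of genes are those of the deposited table, whose build differs.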

Additional observations from a re-analysis of the deposited data

Results flagged for a closer look

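The response to estradiol differed between the genotypes for 1529 genes in limma, and the genes below passed this test of the difference. Effects are log2 differences, KO minus WT, with SE and the Benjamini-Hochberg adjusted p from limma.

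Among genes with more than the sum of the single steps, Camp gave 4.67 ± 0.76 (adjusted p = 0.0038), Ngp 4.39 ± 1.10 (0.0229), Csf2rb2 3.77 ± 0.47 (0.0015) and Csf2rb 3.73 ± 0.47 (0.0015). Cxcl12, a chemokine of stromal cells, gave 4.33 ± 1.17 (0.0306), with 155, 30.4 and 153 FPKM in KO E2, 74.0, 85.7 and 85.9 in WT ovx, and at most 34.7 in KO ovx or WT E2. Mgp, the matrix Gla protein gene, gave 3.87 ± 1.08 (0.0345), with 872, 150 and 457 FPKM in KO E2 and at most 112 in KO ovx or WT E2. LOC100502704 gave 4.57 ± 1.38 (0.0458) and was high in KO E2 replicate 3 only (333 FPKM). LOC100504272 gave 12.30 ± 3.02 (0.0215) and was listed at 0 in all 3 KO ovx libraries, against 2387 to 5308 FPKM in the other 9. Its value follows from these zeros, which may be failed estimates, and does not say whether the steps add up.

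Among genes with less than the sum, Scgb3a1 gave -6.77 ± 1.37 (0.00984), Pdzk1ip1 -6.43 ± 0.93 (0.00251), Ckmt1 -5.89 ± 1.12 (0.0071) and Rragd -2.36 ± 0.29 (0.00141). Fcgbp gave -6.40 ± 1.66 (0.0263) and 9530053A07Rik -6.28 ± 1.61 (0.0248). Calb1, a calcium buffer of the uterine epithelium, gave -6.12 ± 1.47 (0.0193), with 0.126, 7.77 and 0.0788 FPKM in KO E2 against at least 8.29 in KO ovx and WT E2. Prap1, a secreted epithelial protein gene, gave -5.75 ± 1.68 (0.0401). Pigr, the receptor that carries IgA across epithelium, gave -5.63 ± 1.60 (0.0369), with 16.8, 252 and 2.23 FPKM in KO E2 and 223, 254 and 305 in WT E2.

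Positive values of Sned1 (1.77 ± 0.30, adjusted p = 0.00404) and Mir7-1 (3.12 ± 0.52, 0.00398) follow from the floor of the scale. Mir7-1 was listed at 0 in all KO ovx, WT E2 and KO E2 libraries, so its value is the WT ovx level itself. Sned1 was already near 0 in WT E2 (at most 0.113 FPKM) and could fall little further in KO E2. Neither says whether the steps add up.

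None of these 19 calls held in all of the 22 alternatives. Csf2rb, Csf2rb2, Scgb3a1, Pdzk1ip1, Rragd, Sned1 and Mir7-1 passed in 21, Camp and Ckmt1 in 20, and LOC100504272 in 19. Prap1 and Pigr passed in 9, Mgp and LOC100502704 in 10, Cxcl12 in 11, Ngp in 14, and Fcgbp, 9530053A07Rik and Calb1 in 16. With 1 library left out, the highest adjusted p in limma was 0.083 for Cxcl12, 0.0911 for Mgp, 0.108 for Prap1, 0.101 for Pigr and 0.118 for LOC100502704. Each of these 5 genes was lost without KO ovx replicate 4, without WT E2 replicate 1 or 5, and without any 1 of the WT ovx libraries. Cxcl12, Mgp, Prap1 and Pigr were also lost without KO E2 replicate 1 or 3. The calls of Fcgbp and Calb1 were lost without KO ovx replicate 4 (highest adjusted p 0.0686 and 0.0544 over single libraries).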

How the results depend on the processing

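Of 5794 genes differing between KO E2 and WT ovx, 3882 were higher and 1912 lower. With no filter 2898 were lower, and with a mean of at least 5 FPKM, which tests fewer genes, 3439 were called and 562 were lower. Lower genes numbered 3111 after median-ratio scaling, 4086 after quantile normalization and 3064 with array weights. Within set A, with fewer samples, 2169 were called (1236 higher, 933 lower), and within set B 3676 (552 lower). Leaving out 1 library gave 4138 to 5422 in all, 2739 to 3980 higher and 1346 to 2172 lower.

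Of 1529 genes differing between the genotypes in their response to estradiol, 563 were higher and 966 lower. Higher genes numbered 347 with a pseudocount of 0.1, 272 with the stricter filter, 864 after median-ratio scaling and 1065 after quantile normalization. Array weights gave 4140 (1873 and 2267), the library set as a term 942 (552 lower) and set B alone 470 (262 and 208). Leaving out 1 library gave 520 to 2383 in all, 227 to 1138 higher and 293 to 1245 lower. With the replicate block, 19 remained called (2 higher, 17 lower), and the comparison of KO E2 with WT ovx gave 4180 (2831 and 1349). Among the 12 libraries, number 4 occurs only in KO ovx and number 5 only in WT E2. In the interaction, the block therefore sets these libraries aside, and its count of 19 rests on fewer libraries than the main fit. The replicate numbers mark no shared animal or batch in the labels. Except where fewer genes or samples were used, the cause was not tested.

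Of 154 named genes called, 123 stayed past the threshold whichever of the 6 libraries was left out, and 59 under every alternative. Of 19 called in the interaction, 9 were called without each of the 12 libraries. Read depth is unknown, and 3 libraries a group limit the precision.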

Other observations

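Prostaglandin pathway genes were called higher in 8 of 23 and lower in 3 in KO E2 against WT ovx (median 0.43), near the 27.9% and 13.8% of all genes, so no change of the pathway is read from them, with 5 higher without KO E2 replicate 1 or without WT ovx replicate 1 or 2. Ptges, a prostaglandin E synthase gene, stood at 29.5, 1.70 and 10.9 FPKM in KO E2, 2.12, 1.88 and 2.06 in WT ovx and at most 1.17 in KO ovx or WT E2. KO E2 replicate 2 lay below WT ovx, and the limma difference was 1.72 ± 0.55 (adjusted p = 0.0206). Blood endothelium genes had 1 of 17 higher and 1 lower (median -0.12), with library medians of 0.45, -0.87 and 0.23 in KO E2 replicates 1, 2 and 3. Cdh5, the endothelial cadherin gene, was not called, with 10.4, 1.94 and 11.7 FPKM against 7.0, 8.06 and 6.49 (adjusted p = 0.881).

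Of 12 melanocytic genes and markers of lymphangioleiomyomatosis, a disease of TSC2-deficient smooth muscle-like cells, only 6 reached the level to be tested. Among these, 4 were higher in KO E2 (median 1.5), beside 27.9% of all genes. They were Ctsk and Gpnmb, also members of the lysosome list, Mlana, and Cd63, whose call held in 6 of 17 alternatives. The untested Si, Tyr, Tyrp1, Dct, Slc45a2 and Sox10 stood at no more than 0.386 FPKM in any KO E2 or WT ovx library. Mlana, a melanosomal antigen gene, was listed at 0 in all 3 WT ovx libraries and stood at 4.98, 0.375 and 2.95 FPKM in KO E2 and at 0.266, 0.428 and 0.250 in KO ovx. Its call (1.67 ± 0.35, adjusted p = 0.00165 in limma) was lost within library set A. Akr1c18, which inactivates progesterone, rose by 1.34 ± 0.24 (4.57, 2.98 and 3.75 FPKM against 0.724, 1.09 and 0.807). The genes of these paragraphs were chosen after their values were seen.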
